A study of Mus musculus with 4 samples.

Results

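The genes described are 10 members of the WNT pathway, namely Wnt5a, Wnt5b, Ror1, Ror2, Fzd2, Fzd7, Notum, Axin2, Vangl2 and Lrp6, out of 55487 annotated genes in the count table. They were chosen by name as ligands, receptors, an inhibitor and feedback genes, with their difference between the groups already known, so their values are given as a description and without a test. The RNA came from unstimulated LPC-HRas cells, which are labelled as mouse liver cancer cells and were grown in DMEM with serum. Cells overexpressing UBXN9, the product of Aspscr1, gave 2 libraries, called UBXN9 1 and UBXN9 2, and control cells of the same line gave 2, called control 1 and control 2. How UBXN9 was overexpressed and whether the cells were clones or pools are not given in the sources used here, and nothing states that the 2 libraries of a group came from separate cultures, so a p-value here covers no more than the spread among the 4 libraries, which may be technical.

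WNT proteins are secreted, lipid-modified ligands that bind Frizzled receptors. With the co-receptors LRP5 and LRP6 they keep beta-catenin from being degraded by the AXIN, APC and GSK3 destruction complex, and beta-catenin then works with TCF and LEF factors on target genes, some of which feed back on the pathway. Other ligands, WNT5A foremost, act through Frizzled with ROR1, ROR2, PTK7 or RYK on cell polarity, movement and calcium signals without need of beta-catenin. In the liver the beta-catenin branch is known for setting the gene programme of hepatocytes around the central vein.

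Libraries held between 21814969 and 26292686 estimated counts. Levels are CPM, counts scaled to library size and TMM factors, means are given with the SD over n = 2 libraries, and a log2 fold change is UBXN9 over control with its SE from the edgeR fit. Aspscr1 stood at 391.6 and 380 CPM in the UBXN9 libraries, against 92.1 and 115 CPM in the controls, a log2 fold change of 1.90 (SE 0.18, edgeR adjusted p = 0.00144). With 2 libraries in each group, 0.333 is the smallest two-sided p of an exact permutation test. The labelled liver origin was not matched by hepatocyte markers: Alb, Fgb and Serpina1a had 0 counts in all 4 libraries, and the 7 markers summed to between 1.44 and 1.62 CPM in UBXN9 libraries and between 0.998 and 1.41 CPM in controls. The biliary or progenitor markers summed to between 2940 and 3201 CPM in UBXN9 libraries and between 2383 and 2659 CPM in controls. Most of this was Spp1, and 1 of 3 tested members was lower (Krt19). Sox9, also tested, had 194 and 208 CPM in UBXN9 libraries against 168 and 174 CPM in controls (edgeR adjusted p = 0.447). Prom1 had 0 counts in all 4 libraries, and Epcam and Krt7 had at most 4 and 3 counts in any library. Of 9 markers of stellate cells or fibroblasts, which express several WNT genes, 7 were tested, 2 rose (Col1a1 and Acta2) and 0 fell by edgeR. They summed to between 2873 and 3136 CPM in UBXN9 libraries and between 2703 and 3077 CPM in controls, mostly Vim, with Reln at 0. Pdgfrb came next, at 196 and 240 CPM in UBXN9 libraries and 174 and 162 CPM in controls. Of 3 epithelial markers 2 were tested and 1 fell (Krt18), and the list summed to between 0.980 and 1.34 CPM in UBXN9 libraries and between 3.59 and 3.67 CPM in controls. Of 6 endothelial markers 2 were tested and 0 were called by edgeR, with at most 4.58 CPM in sum. Lymphoid markers, with Cd3e, Cd3g and Nkg7 at 0, summed to at most 0.149 CPM and myeloid markers to at most 11.996 CPM in any library, the myeloid ones with 1 of 3 tested members higher (Lyz2). Among all genes tested, edgeR called 5.06% higher and 2.38% lower. The marker lists are short, so no shift of cell type is read from single calls. The part of these markers in the results was not tested, and in bulk RNA fewer cells of a type cannot be told apart from less RNA per cell.

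Wnt5a, the main ligand of the ROR branch (ENSMUSG00000021994, chromosome 14, 28504750 to 28527448, GRCm38, plus strand), was nearly absent from the UBXN9 libraries. It had 4 and 18 counts in UBXN9 1 and UBXN9 2, against 673 and 388 counts in control 1 and control 2. On the CPM scale these were 0.199 and 0.679 in UBXN9 cells, against 25.7 and 17.6 in control cells. The higher UBXN9 library lay far below the lower control, and the controls themselves differed by less than their distance from either UBXN9 library. The log2 fold change was -5.54 (SE 0.48), a level 46.5-fold lower in UBXN9 cells. The ratio rested in part on the few counts left in the UBXN9 libraries: it was 31.6-fold without UBXN9 1 and 106-fold without UBXN9 2, and 38.4-fold and 55.5-fold without control 1 and control 2. Gm2670, on the opposite strand, shares 358 of the 7823 exon bases of Wnt5a. It had 0 and 0 counts in UBXN9 libraries, against 6 and 5 in controls. Whether the counting used strand is not given in the sources used here, so reads of the shared bases may belong to either gene.

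**Figure D1:**
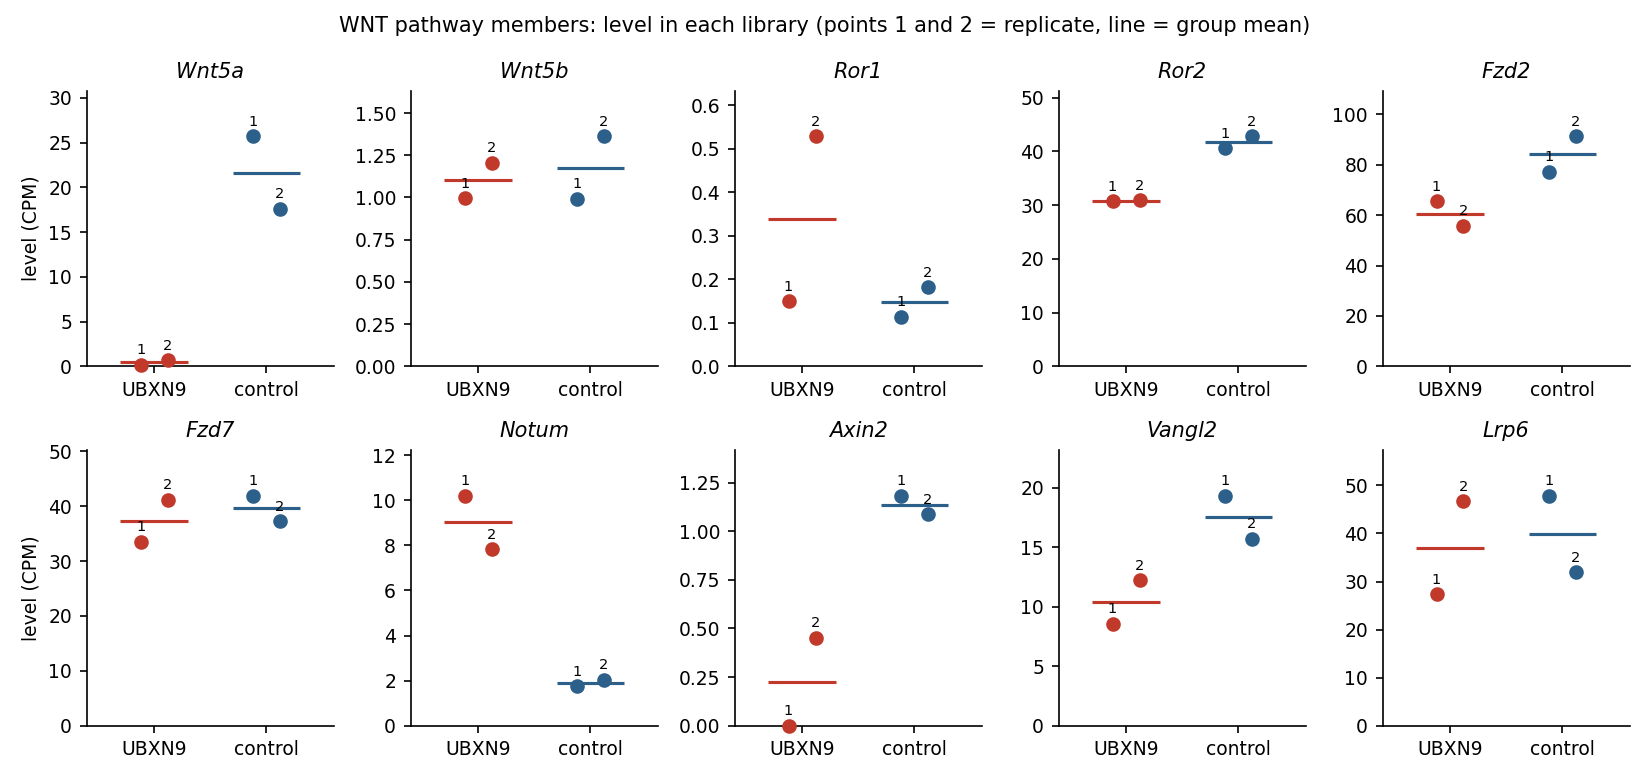
Level of each of the 10 members in CPM (vertical axes, each from 0) in UBXN9 and control libraries; points are single libraries numbered by replicate and lines are group means. Wnt5a sat at 0.199 and 0.679 CPM in UBXN9 libraries against 25.7 and 17.6 CPM in controls, Notum at 10.2 and 7.84 CPM in UBXN9 libraries against 1.76 and 2.04 CPM in controls, and the libraries of Lrp6, Fzd7 and Wnt5b overlapped between the groups.

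Wnt5b, the closest relative of Wnt5a (ENSMUSG00000030170, chromosome 6, 119432531 to 119544347), was low in every library. It had 20 and 32 counts in UBXN9 1 and 2, against 26 and 30 in control 1 and 2, or 0.996 and 1.21 CPM in UBXN9 libraries against 0.992 and 1.36 CPM in controls. The groups overlapped, and the log2 fold change was -0.08 (SE 0.42), negative with all libraries and positive without UBXN9 1 (0.05) or without control 2 (0.15). With 20 to 32 counts in a library, a small difference of Wnt5b would not be detectable, whereas larger ones were called at similar counts, as for Wif1 and Fzd9.

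Of the other 17 WNT ligand genes 6 had enough counts to test, 2 fell and 0 rose by edgeR, where 2.38% of all genes tested were called lower and 5.06% higher (4 ligand genes lower and 0 higher at an unadjusted p under 0.05). Their median log2 fold change was -1.11, against -0.0056 over all 13230 genes tested. Wnt11 had enough counts to test only in the controls, so it could enter only as a lower gene. The share of all genes tested with an unadjusted p under 0.05 was not counted, so such counts, here and below, have no background beside them. Wnt6, on chromosome 1 from 74771892 to 74785322, fell to 3.93 and 4.26 CPM in UBXN9 libraries, against 14.9 and 15.2 CPM in controls (log2 fold change -1.87, SE 0.23, edgeR adjusted p = 0.00426). Wnt7b, a ligand of the beta-catenin branch and the most abundant of all, fell to 22.8 and 25.1 CPM in UBXN9 libraries, against 46.1 and 58.5 CPM in controls (log2 fold change -1.13, SE 0.19, edgeR adjusted p = 0.0147, and 0.144 without control 2). Both genes had each UBXN9 library below each control. Wnt10a, which lies next to Wnt6 from 74791516 to 74804179, averaged 3.11 ± 0.456 CPM in UBXN9 cells and 6.65 ± 0.225 CPM in control cells and missed the threshold (edgeR adjusted p = 0.058). Wnt11, another ligand of the beta-catenin-independent branch, had 8 and 2 counts in UBXN9 libraries against 23 and 26 in controls and missed the threshold (edgeR adjusted p = 0.14). Wnt4 and Wnt10b had log2 fold changes of 0.27 and 0.06, with edgeR adjusted p values of 0.608 and 0.932. Wnt9a, too low to test, had 3 and 4 counts in UBXN9 libraries against 11 and 8 in controls, and 6 ligand genes had 0 counts in all 4 libraries.

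Per kilobase of exon, which allows genes to be set beside each other, Wnt5a ranked 8 of 19 ligands in UBXN9 cells, at 0.0561 ± 0.0433 CPM per kb, and 3 of 19 in control cells, at 2.77 ± 0.73 CPM per kb. In UBXN9 cells its libraries overlapped those of Wnt11 and Wnt9a, the next above and below. In control cells they overlapped those of Wnt10b and Wnt10a, the next genes below, while Wnt6 and Wnt7b stood above Wnt5a without overlap. The 19 ligands together summed to 12.3 and 13.4 CPM per kb in UBXN9 libraries, against 26.8 and 28.7 CPM per kb in controls. Of that sum Wnt5a made up 0.206% and 0.648% in UBXN9 libraries, against 12.2% and 7.85% in controls, and Wnt5b made up 3.04% and 3.40% in UBXN9 libraries, against 1.39% and 1.79% in controls. Wls, which carries WNT proteins to the cell surface, averaged 106 ± 7.27 CPM in UBXN9 cells and 128 ± 7.65 CPM in control cells, and Porcn, the enzyme that attaches their lipid, 3.63 ± 0.222 CPM in UBXN9 cells and 2.08 ± 0.0778 CPM in control cells. Neither passed (edgeR adjusted p = 0.373 and 0.176), nor did Gpc6, a cell surface glypican (edgeR adjusted p = 0.577). Of 5 genes of ligand secretion these 3 were tested, and edgeR, limma-voom and DESeq2 called 0 (1 higher and 0 lower at an unadjusted p under 0.05 by edgeR).

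**Figure D2:**
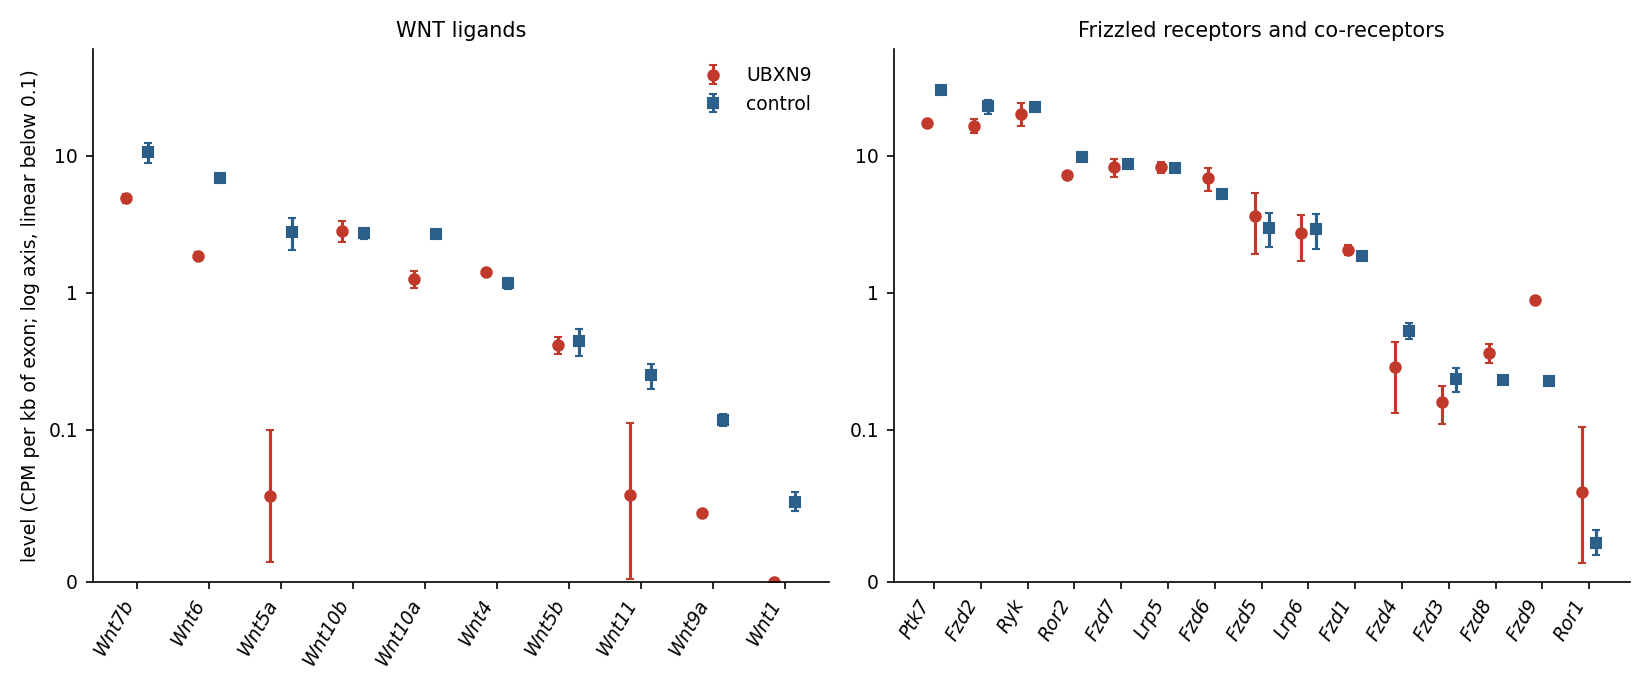
Mean level per kilobase of exon (vertical axis, CPM per kb, log scale that turns linear below 0.1) of WNT ligands and of Frizzled receptors with co-receptors, UBXN9 left of control for each gene; bars are the SD over n = 2 libraries, and genes at or near 0 in both groups are left out. Wnt5a stands at 0.0561 in UBXN9 cells against 2.77 in control cells, while most receptors lie close together in the 2 groups.

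Receptors of WNT5A were expressed in both groups. Ror2, its receptor tyrosine kinase (ENSMUSG00000021464, chromosome 13, 53109312 to 53286124), had 30.7 and 30.9 CPM in UBXN9 libraries, against 40.6 and 42.8 CPM in controls, a log2 fold change of -0.44 (SE 0.16) and no overlap between the groups. Fzd2, a Frizzled that binds WNT5A (ENSMUSG00000050288, chromosome 11, 102604396 to 102608058), had 65.5 and 55.8 CPM in UBXN9 libraries, against 77.3 and 91.2 CPM in controls (log2 fold change -0.48, SE 0.17), again without overlap. Among all genes tested 50.6% had groups that did not overlap, so this alone is common in these libraries. Fzd7, another Frizzled (ENSMUSG00000041075, chromosome 1, 59482424 to 59486955), had 33.5 and 41.2 CPM in UBXN9 libraries, against 41.9 and 37.3 CPM in controls, which overlap (log2 fold change -0.08, SE 0.18, and 0.06 without UBXN9 1). Ror1, the relative of Ror2 (ENSMUSG00000035305, chromosome 4, 100095791 to 100444765), had at most 14 counts in any library, with 3 and 14 counts in UBXN9 libraries against 3 and 4 in controls. It did not pass the filter on low counts and was not tested.

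Lrp6, the co-receptor of the beta-catenin branch (ENSMUSG00000030201, chromosome 6, 134446476 to 134566965), varied more within the groups than between them. It had 27.3 and 46.7 CPM in UBXN9 1 and 2, against 47.8 and 31.9 CPM in control 1 and 2. The highest and the lowest libraries thus came from different groups that otherwise overlapped, and the log2 fold change of -0.11 (SE 0.30) became 0.23 without UBXN9 1 and 0.21 without control 1. Its partner Lrp5 averaged 80.9 ± 7.51 CPM in UBXN9 cells and 79.8 ± 1.80 CPM in control cells (edgeR adjusted p = 0.969).

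Of the other 8 Frizzled genes 7 were tested, and 1 rose and 0 fell by edgeR. Over all genes tested, 5.06% were called higher and 2.38% lower. The median log2 fold change of the 7 was 0.29, against -0.0056 over all genes tested. Fzd9 rose to 1.99 and 2.07 CPM in UBXN9 libraries, against 0.496 and 0.544 CPM in controls, a log2 fold change of 1.96 (SE 0.41, edgeR adjusted p = 0.0338). That call was lost with DESeq2 (adjusted p = 0.0903), with library size alone (edgeR adjusted p = 0.0572) and without control 1 or control 2 (edgeR adjusted p = 0.219 and 0.211). None of Fzd6, Fzd5 and Fzd1, the most abundant of the 8, passed, with log2 fold changes of 0.37, 0.29 and 0.16 (edgeR adjusted p = 0.331, 0.71 and 0.769). Of 4 other co-receptor genes 3 were tested and 1 fell. Ptk7, a pseudokinase of the polarity branch and the most abundant of them, fell to 94.5 and 92.5 CPM in UBXN9 libraries, against 162 and 163 CPM in controls. Its log2 fold change was -0.80 (SE 0.15, edgeR adjusted p = 0.0211), and the call was lost without control 1 (0.152) and without control 2 (0.211). Ryk averaged 92.3 ± 18.0 CPM in UBXN9 cells and 103 ± 7.12 CPM in control cells (edgeR adjusted p = 0.699).

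Per kilobase, Fzd2 ranked 3 of 17 among receptors and co-receptors in UBXN9 cells, at 16.5 ± 1.87 CPM per kb, and 2 of 17 in control cells, at 23.0 ± 2.69 CPM per kb. Its libraries overlapped those of Ptk7 and Ryk in UBXN9 cells and those of Ryk in control cells. Among the members Fzd7 and Ror2 came next, at 8.24 ± 1.203 and 7.26 ± 0.0339 CPM per kb in UBXN9 cells, without overlap, and at 8.74 ± 0.718 and 9.82 ± 0.370 in control cells, where Ror2 was the higher of the pair, also without overlap. Of genes that are no members, Lrp5 stood between Fzd2 and Fzd7 in UBXN9 cells and overlapped with Fzd7, and Ryk stood between Fzd2 and Ror2 in control cells. Lrp6 had 2.71 ± 1.00 CPM per kb in UBXN9 cells and 2.92 ± 0.825 in control cells and overlapped with Fzd5 in each group.

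Notum, a secreted enzyme that removes the lipid from WNT proteins and so inactivates them (ENSMUSG00000042988, chromosome 11, 120653788 to 120661175, minus strand), was higher in UBXN9 cells. It had 205 and 208 counts in UBXN9 libraries, against 46 and 45 in controls, or 10.2 and 7.84 CPM in UBXN9 libraries against 1.76 and 2.04 CPM in controls. Each UBXN9 library stood well above each control. The log2 fold change was 2.25 (SE 0.29), a level 4.74-fold higher, and between 4.14-fold and 5.38-fold with any single library left out. Per kilobase this was 3.75 ± 0.694 CPM per kb in UBXN9 cells and 0.788 ± 0.0841 in control cells. Wnt5a and Notum were the 2 of the 9 tested members among the genes that edgeR called at an adjusted p under 0.05, which were 7.44% of all genes tested (5.06% higher and 2.38% lower). Nothing is read from that count, since the comparison was known when the members were chosen.

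Notum and Aspscr1, the overexpressed gene, are neighbours on chromosome 11. They lie 11.8 kb apart, with their starts facing each other on opposite strands. Within 100 kb of the pair lie 28 annotated genes, of which 19 besides these 2 were tested, and by edgeR 1 of them rose and 0 fell. Over all genes tested, edgeR called 5.06% higher and 2.38% lower. At an unadjusted p under 0.05, 4 of the 19 were higher (Cbr2, Notumos, Dcxr and Hmga1b) and 1 was lower (Cenpx). How many of all genes tested had such a p was not counted, so no local excess can be read from this. Both UBXN9 libraries lay above both controls in 7 of the 19 and below both in 4, where 25.0% and 25.6% of all genes tested did so. The window was chosen after the values were seen. The median log2 fold change of the 19 was 0.07, within a range of -0.79 to 2.57. The 1 that rose was Cbr2, a carbonyl reductase, with 11.8 and 8.03 CPM in UBXN9 libraries, against 1.26 and 2.09 CPM in controls (edgeR adjusted p = 0.00769). Pycr1, the nearest tested gene beyond Notum other than its antisense RNA, averaged 34.7 ± 0.368 CPM in UBXN9 cells and 32.0 ± 2.27 CPM in control cells (edgeR adjusted p = 0.762). The antisense RNA Notumos shares 708 of the 2408 exon bases of Notum. It had 15 and 32 counts in UBXN9 libraries, against 12 and 6 in controls, and missed the threshold (edgeR adjusted p = 0.199). The part of the neighbouring position in the level of Notum was not tested.

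**Figure D3:**
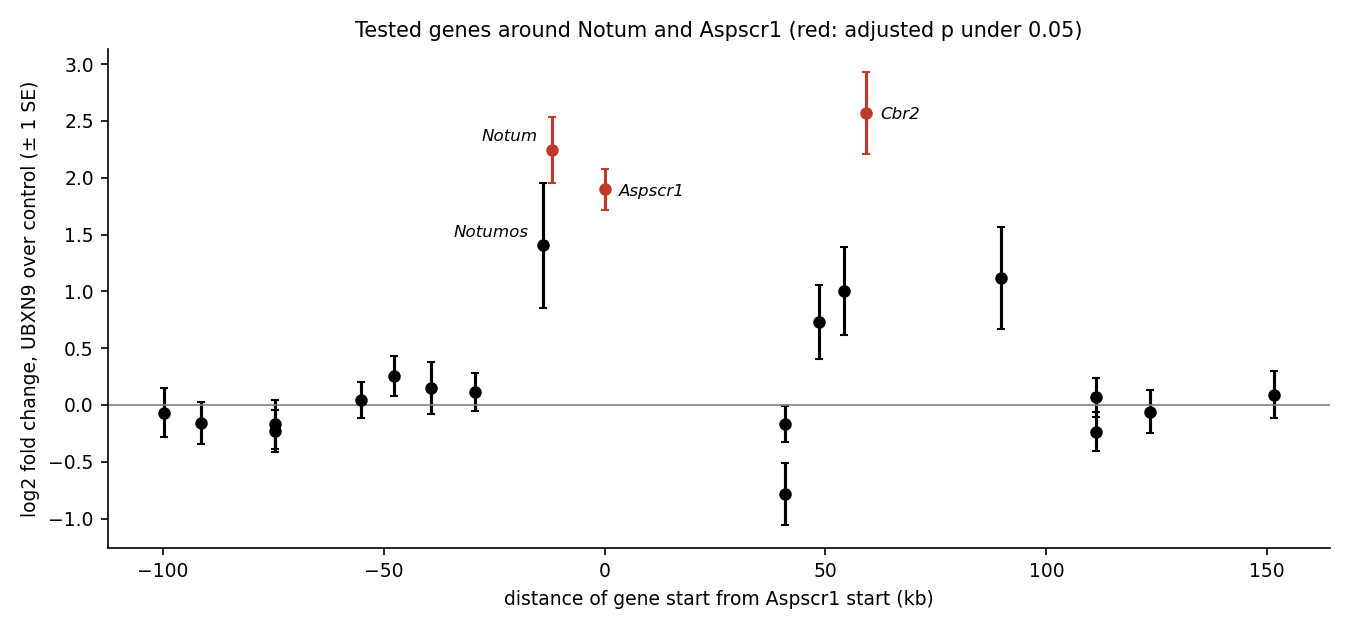
Log2 fold change of UBXN9 over control (vertical axis, bars ± 1 SE) of each tested gene around Notum and Aspscr1, by the distance of its start from the Aspscr1 start in kb (horizontal axis); red marks an edgeR adjusted p under 0.05. Notum (2.25), Aspscr1 (1.90) and Cbr2 (2.57) stand above the other genes of the window, whose median with Cbr2 included is 0.07.

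Of 15 other genes of secreted inhibitors and their partners, 7 were tested, and 3 fell and 0 rose by edgeR. Over all genes tested, 2.38% were called lower and 5.06% higher. At an unadjusted p under 0.05, 5 of the 7 were lower and 0 higher, and the median log2 fold change of the 7 was -1.74. Wif1, Dkk2 and Frzb passed the filter on low counts only through the controls, so they could be counted only as lower. The counts and the median thus depend in part on the filter. Wif1, which binds WNT proteins outside the cell, fell to 3 and 5 counts in UBXN9 libraries, against 51 and 48 in controls, a log2 fold change of -3.55 (SE 0.49, edgeR adjusted p = 0.00705). Dkk2, which blocks LRP5 and LRP6, fell to 4 and 5 counts in UBXN9 libraries, against 44 and 26 in controls (log2 fold change -2.86, SE 0.53, edgeR adjusted p = 0.0224). Dkk3, a distant member of the same family, fell to 5.03 and 4.41 CPM in UBXN9 libraries, against 12.9 and 10.9 CPM in controls (log2 fold change -1.34, SE 0.24, edgeR adjusted p = 0.0205). The call of Dkk2 was lost without control 1 or 2 (edgeR adjusted p = 0.209 and 0.0683), as was that of Dkk3 (0.105 and 0.0549). Sostdc1, which binds LRP co-receptors, had 10 and 22 counts in UBXN9 libraries against 60 and 49 in controls and missed the threshold (edgeR adjusted p = 0.0554). Frzb, a decoy receptor, had 2 and 4 counts in UBXN9 libraries against 17 and 10 in controls and missed the threshold (edgeR adjusted p = 0.134). Kremen1, a receptor for DKK proteins, and Trabd2b, a protease that cleaves WNT, had log2 fold changes of 0.06 and 0.04 (edgeR adjusted p = 0.889 and 0.982).

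Axin2, a scaffold of the destruction complex and a target gene of beta-catenin that feeds back on it (ENSMUSG00000000142, chromosome 11, 108920349 to 108950783), was low throughout. It had 0 and 12 counts in UBXN9 1 and 2, against 31 and 24 in control 1 and 2, or 0 and 0.452 CPM in UBXN9 libraries against 1.18 and 1.09 CPM in controls. Both UBXN9 libraries lay below both controls, but they differed from each other by as much as 12 counts. The log2 fold change was -2.19 (SE 0.91). It was -1.32 without UBXN9 1, and without UBXN9 2, where the group is at 0, the level was at least 7.61-fold lower against a floor of 3 counts in that library. With limma-voom the log2 fold change was -3.31.

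Axin2 and Notum are both known as feedback genes of the beta-catenin branch, and their differences between the groups ran in opposite directions. Of the other 23 target and feedback genes 11 were tested, 2 fell and 0 rose by edgeR (4 lower and 0 higher at an unadjusted p under 0.05), with a median log2 fold change of -0.34. By edgeR 2.38% of all genes tested were called lower and 5.06% higher, and their median was -0.0056. Apcdd1, a membrane inhibitor of WNT signals, fell to 20 and 34 counts in UBXN9 libraries, against 346 and 296 in controls. These are 0.996 and 1.28 CPM in UBXN9 libraries against 13.2 and 13.4 CPM in controls, a log2 fold change of -3.53 (SE 0.28, edgeR adjusted p = 0.000718). Bambi, a decoy receptor of the TGF-beta family, fell to 8.01 and 7.05 CPM in UBXN9 libraries, against 18.2 and 18.5 CPM in controls (log2 fold change -1.29, SE 0.21, edgeR adjusted p = 0.0135, and 0.08 without control 2). The abundant growth genes on the list did not pass. Ccnd1, which encodes cyclin D1, Myc, a growth regulator, and Cd44, a cell surface receptor, averaged 622 ± 71.9, 493 ± 21.5 and 266 ± 59.1 CPM in UBXN9 cells, and 687 ± 51.7, 386 ± 13.4 and 337 ± 40.1 CPM in control cells (edgeR adjusted p = 0.731, 0.272 and 0.412).

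The promoters of members and of called pathway genes were read for the core letters that TCF and LEF factors bind, because Axin2 is the textbook target of those factors. RefSeq start sites on GRCm38.p6 were found for 6 of the 10 members, and the windows are the 250 bases before a start. Each line runs 5′ to 3′ on the strand of the gene, and capitals mark the motifs CTTTGA and CTTTGT on either strand, which do not overlap in the windows shown. Of 32851 promoter windows of that length, 13.8% held CTTTGA, 16.5% CTTTGT and 27.6% at least 1 of them. Wnt5b had 3 start sites in the table, and the start whose window held a motif is shown.
Axin2 (chr11:108920099-108920348, plus strand): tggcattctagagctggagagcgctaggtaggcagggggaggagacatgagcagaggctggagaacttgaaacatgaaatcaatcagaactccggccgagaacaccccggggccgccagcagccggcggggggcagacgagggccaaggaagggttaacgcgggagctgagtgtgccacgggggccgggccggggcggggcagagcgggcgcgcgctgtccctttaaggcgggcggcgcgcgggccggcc
Wnt6 (chr1:74771642-74771891, plus strand): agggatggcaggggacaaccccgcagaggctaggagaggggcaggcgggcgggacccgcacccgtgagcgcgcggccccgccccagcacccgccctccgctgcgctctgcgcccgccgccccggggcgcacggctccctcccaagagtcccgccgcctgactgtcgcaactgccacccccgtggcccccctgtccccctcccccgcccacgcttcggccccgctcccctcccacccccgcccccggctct
Wnt5b (chr6:119449387-119449636, minus strand): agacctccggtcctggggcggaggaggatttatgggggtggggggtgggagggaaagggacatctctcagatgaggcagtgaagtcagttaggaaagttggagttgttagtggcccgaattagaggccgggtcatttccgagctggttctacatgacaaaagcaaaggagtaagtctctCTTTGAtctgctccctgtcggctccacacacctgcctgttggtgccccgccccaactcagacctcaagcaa
Ror2 (chr13:53286125-53286374, minus strand): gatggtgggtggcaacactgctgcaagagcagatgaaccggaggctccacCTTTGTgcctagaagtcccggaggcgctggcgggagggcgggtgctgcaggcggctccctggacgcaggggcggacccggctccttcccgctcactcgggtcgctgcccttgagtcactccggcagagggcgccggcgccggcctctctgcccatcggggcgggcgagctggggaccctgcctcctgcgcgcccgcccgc
Of the 6 members with a window, 4 held a motif: Wnt5b (1 of its 3 windows) and Ror1 held CTTTGA, and Ror2 and Fzd7 held CTTTGT, while Axin2 and Vangl2 held neither. Of the 7 called pathway genes with a window, Dkk2 and Apc2 (2 of its 4 windows) held CTTTGT, and Wnt6, Wif1, Ptk7, Nfatc4 and Fzd9 held neither. Counts here are per gene, where any 1 window suffices, whereas the 27.6% is per window, so they cannot be compared directly. The motif was thus present and absent both among genes whose UBXN9 libraries lay below both controls and among the others. These are letters in short windows and say nothing of binding or of sites elsewhere.

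Of the other 15 genes of Dishevelled and the destruction complex all were tested, and 1 fell and 0 rose by edgeR. Their median log2 fold change was -0.08. Over all genes tested, 2.38% were called lower and 5.06% higher. Apc2, a relative of APC, fell to 2.44 and 1.66 CPM in UBXN9 libraries, against 6.26 and 6.03 CPM in controls (log2 fold change -1.59, SE 0.31, edgeR adjusted p = 0.0264, and 0.052 and 0.0764 without control 1 and 2). Ctnnb1, which encodes beta-catenin, averaged 625 ± 21.7 CPM in UBXN9 cells and 662 ± 28.3 CPM in control cells (edgeR adjusted p = 0.847). Dvl2 and Gsk3a had log2 fold changes of 0.27 and -0.18 (edgeR adjusted p = 0.403 and 0.557). Of 15 nuclear factors all were tested, and edgeR called 0 (3 lower and 0 higher at an unadjusted p under 0.05), limma-voom 0 and DESeq2 1, Tcf7l1, which was lower. Their median was -0.04. The abundant co-repressors Aes (newer name Tle5), Ctbp1 and Tle3 averaged 274 ± 15.4, 258 ± 6.98 and 152 ± 31.2 CPM in UBXN9 cells, and 337 ± 30.1, 221 ± 17.3 and 151 ± 13.05 CPM in control cells (edgeR adjusted p = 0.365, 0.484 and 0.983). Of 9 genes of the R-spondin axis, which sets receptor turnover, 2 were tested, Znrf3 and Lgr4, and edgeR, limma-voom and DESeq2 called 0 (0 at an unadjusted p under 0.05 by edgeR). Znrf3 averaged 6.57 ± 2.60 CPM in UBXN9 cells and 6.67 ± 1.41 CPM in control cells, and Lgr4 5.65 ± 1.02 CPM in UBXN9 cells and 5.53 ± 1.08 CPM in control cells. Lgr6, next by level and too low to test, had 5 and 4 counts in UBXN9 libraries against 3 and 0 in controls.

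Vangl2, a membrane protein of planar cell polarity (ENSMUSG00000026556, chromosome 1, 172000960 to 172028444), had 8.56 and 12.3 CPM in UBXN9 libraries, against 19.3 and 15.7 CPM in controls. The groups did not overlap, and the log2 fold change was -0.75 (SE 0.25). It was between -1.04 and -0.52 with any single library left out. Its paralog Vangl1 averaged 19.9 ± 5.00 CPM in UBXN9 cells and 17.5 ± 0.471 CPM in control cells (edgeR adjusted p = 0.718). Of the other 14 polarity genes 8 were tested, and edgeR, limma-voom and DESeq2 called 0 (1 higher and 1 lower at an unadjusted p under 0.05 by edgeR), with a median of -0.10. The 1 higher was Prickle1, with 12 and 40 counts in UBXN9 libraries against 6 and 3 in controls. It had enough counts to test only in the UBXN9 libraries, so it could enter only as a higher gene. By edgeR 5.06% of all genes tested were called higher and 2.38% lower. The scaffold gene Scrib had 147 ± 0.328 CPM in UBXN9 cells and 184 ± 7.42 CPM in control cells, and the formin gene Daam2 35.4 ± 9.39 CPM in UBXN9 cells and 39.7 ± 3.88 CPM in control cells (edgeR adjusted p = 0.278 and 0.74).

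Of 13 genes of the calcium branch and of WNT5A and ROR effectors 11 were tested, and 1 fell and 0 rose by edgeR. Their median log2 fold change was -0.32. Over all genes tested, 2.38% were called lower and 5.06% higher. Nfatc4, a transcription factor activated by calcium and calcineurin, fell to 6.77 and 6.86 CPM in UBXN9 libraries, against 30.3 and 26.4 CPM in controls, a log2 fold change of -2.05 (SE 0.20, edgeR adjusted p = 0.00175). Each UBXN9 library lay far below each control. The most abundant genes of the branch, the kinase genes Camk2b and Camk2d and the factor Nfatc3, averaged 66.2 ± 5.59, 65.7 ± 17.1 and 54.0 ± 28.3 CPM in UBXN9 cells, and 72.7 ± 8.51, 63.7 ± 10.8 and 45.9 ± 12.1 CPM in control cells (edgeR adjusted p = 0.718, 0.947 and 0.78).

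Over the whole pathway outside the members, 132 genes were listed by role, some under several roles, and 85 were tested. By edgeR 10 fell and 1 rose, which is 11.8% and 1.18% of the 85. Over all genes tested, 2.38% were lower and 5.06% higher. The lists were made with earlier results of these data known, so these shares are a description and no test of the pathway. Wif1 and Dkk2 among the 10 also passed the filter on low counts only through the controls. Both UBXN9 libraries lay below both controls in 36 of the 85 (42.4%, against 25.6% of all genes tested) and above both in 16 (18.8%, against 25.0%). Wif1, Dkk2, Wnt11 and Frzb had enough counts to test only in the controls, so they could enter only the 36. Prickle1 had enough only in the UBXN9 libraries, so it could enter only the 16. Both shares thus depend in part on the filter. The median log2 fold change was -0.12, against -0.0056 over all genes tested. The counts moved with the library left out: 18 were lower and 10 higher without UBXN9 1, 21 and 2 without UBXN9 2, 6 and 0 without control 1, and 4 and 0 without control 2.

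**Figure D4:**
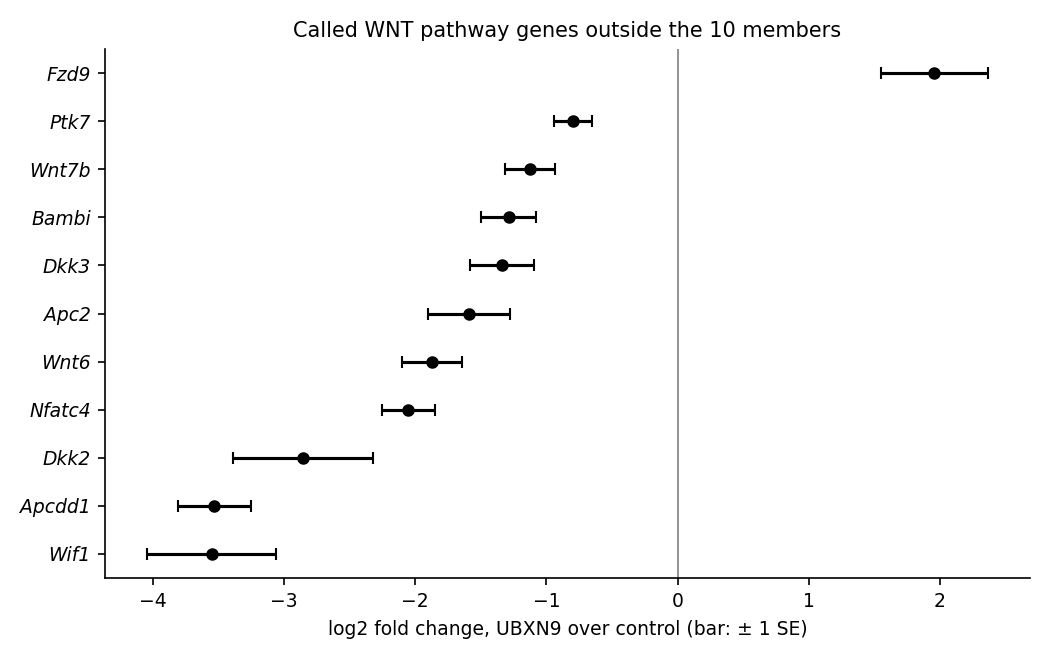
Log2 fold change of UBXN9 over control (horizontal axis, bars ± 1 SE) of the 11 WNT pathway genes outside the members with an edgeR adjusted p under 0.05. The 10 lower genes run from Ptk7 at -0.80 to Wif1 at -3.55, and Fzd9, the 1 higher gene, stands at 1.96.

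The libraries of a group differed from each other in a way that moved with exon length. Over the 94 tested pathway genes, members included, the log2 ratio of UBXN9 2 to UBXN9 1, on CPM + 0.5, had a Spearman correlation of 0.52 with exon length, and that of control 1 to control 2 one of 0.58. Over the 13219 tested genes with a length these were 0.43 and 0.34. The points share the same 2 libraries in each case and are a description. The log2 fold change between the groups had a correlation of 0.07 with length over the 94 genes. Lrp6, with 13672 exon bases the longest member, had log2 ratios of 0.76 and 0.58, while Notum, with 2408 the shortest, had -0.36 and -0.17. Wnt5a, with 7823, had 0.75 and 0.53.

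**Figure D5:**
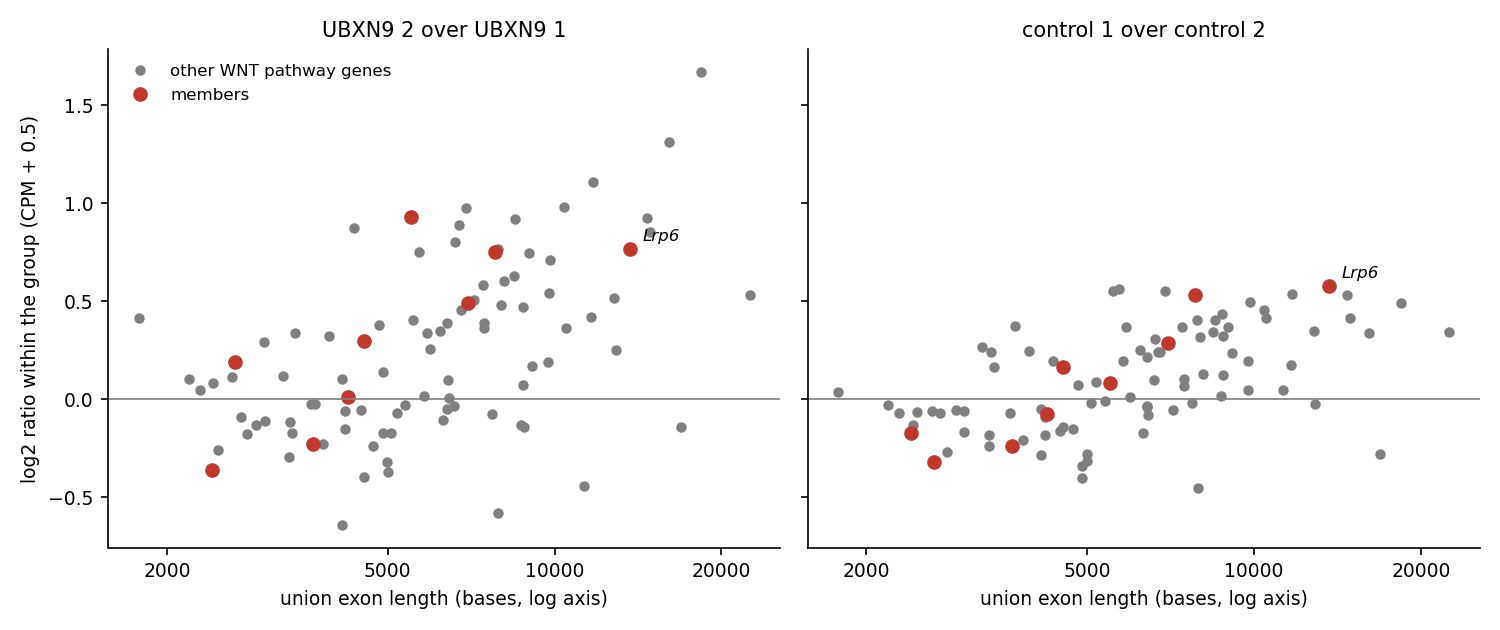
Log2 ratio between the 2 libraries of a group (vertical axis, on CPM + 0.5) against exon length in bases (horizontal log axis) for the 94 tested WNT pathway genes, with UBXN9 2 over UBXN9 1 on the left and control 1 over control 2 on the right; members are red. Longer genes tend to lie higher in each panel, and Lrp6 stands at 0.76 and 0.58.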

How the data were processed

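RNA was sequenced from 2 UBXN9-overexpressing and 2 control libraries made with an Illumina TruSeq RNA kit (per the labels' protocols). The authors deposited estimated counts for each gene, and library totals differ; the submitters' processing notes name HISAT2 2.1.0, HTSeq and GRCm38.p6, and settings, annotation and strand handling are not given in the sources used here. Values were rounded. The 241 of 55728 entries outside the annotation, at most 0.535% of a library, were left out, and 55227 of the 55487 identifiers were found in GENCODE M21 (GRCm38), which gave symbols, positions and union exon lengths.

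The comparison used edgeR 4.0.16 under R 4.3.3 (TMM factors, filterByExpr, quasi-likelihood F tests, two-sided). Benjamini-Hochberg adjustment ran over all 13230 genes that passed the filter. SEs are the absolute log2 fold change over the square root of F. The procedure was tested on simulated data. Alternatives were RLE factors, library size alone, no filter, 5 CPM in 2 libraries, DESeq2 1.42.0, limma-voom (limma 3.58.1), a replicate block, a threshold of 0.01 and 3 libraries in place of 4, where the group with a single library borrows the spread of the other. Figures were drawn with matplotlib 3.10.9.

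The members and lists were chosen with earlier results of these data known. Named genes were the members, Aspscr1, pathway genes called by edgeR, the 3 most abundant of each role list, ligands, R-spondins and secreted inhibitors with at least 10 counts in a library, and the 3 genes nearest in pattern to Wnt5a and to Notum. Cbr2, Pycr1, Notumos, Dcxr, Hmga1b, Cenpx, Gm2670, the single markers, Prickle1 and Tcf7l1 were named after their values were seen.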

Additional observations from a re-analysis of the deposited data

How the results depend on the processing

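The count of changed genes was 984, and it was 1827 with no filter on low counts, 398 at an adjusted p under 0.01, and between 508 and 2782 with a library left out, lowest without control 2 and highest without UBXN9 2. Of pathway genes outside the members 10 were lower. That count was 17 with no filter, 4 at an adjusted p under 0.01, and between 4 and 21 with a library left out. The count higher was 1, and it was 2 with no filter, 0 with library size alone, with 5 CPM in 2 libraries, with DESeq2 and at an adjusted p under 0.01, and between 0 and 10 with a library left out; at an unadjusted p under 0.05 edgeR had 3 higher with all libraries, 2 with library size alone and 1 with 5 CPM in 2 libraries, and DESeq2 had 3. RLE factors, unrounded values and limma-voom gave the same 11 genes. With 5 CPM in 2 libraries Wif1, Dkk2 and Fzd9 were not among the genes tested. Aspscr1 kept its call in all 12 alternatives.

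Same-numbered libraries deviated from their group means in opposite directions (Pearson correlation across genes -0.53). With 2 libraries in each group this cannot show whether same-numbered libraries were prepared together. The main comparison did not use the numbers. With a replicate block 932 genes changed and 11 pathway genes were called, 10 of them shared, with Ptk7 lost (adjusted p = 0.0723) and Sostdc1 gained. With the numbers crossed, an alternative chosen after seeing the data, 3137 genes changed, with 21 pathway genes lower and 5 higher.

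Of 97 values of the members under the alternatives, 87 moved by less than 1 SD of that gene between libraries and 10 by more. The 10 were Wnt5a and Axin2 without either UBXN9 library, Axin2 with limma-voom, and Wnt5b and Ror2 without either control. Ror2 with library size alone completes them. A value could change sign within its SD, as that of Lrp6 did without UBXN9 1. Depth limits Axin2, Wnt5b and Ror1, which had at most 32 counts in any library.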

Other observations

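Among 11125 other tested genes with at least 2 CPM on average, Car14, Arap3 and Iglon5 lay nearest to Wnt5a in pattern, by the distance of centred log2(CPM + 1) values over the 4 libraries (0.634, 0.646 and 0.803). Car14, a carbonic anhydrase, had 0.498 and 0.377 CPM in UBXN9 libraries, against 17.3 and 16.6 CPM in controls. Nearest to Notum were Apol9b, Hp and Gm14137, at distances of 0.053, 0.0663 and 0.097. Hp, which encodes the plasma protein haptoglobin, had 167 and 135 CPM in UBXN9 libraries, against 39.3 and 46.2 CPM in controls. With 4 libraries in 2 groups, such likeness describes little beyond the size of the group difference.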
